A study of Mus musculus with 9 samples.

Results

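Genes of mouse chromosome 13 were read in the order in which they lie on the chromosome, from the centromeric end to the far end, array by array, in T-cell lymphomas that maintain their telomeres either with telomerase or by alternative lengthening of telomeres (ALT), a mechanism based on recombination between telomeres. The array annotation and the RefSeq gene map of GRCm38.p6 placed 705 genes with a probe set on this chromosome. The segments of the T-cell receptor gamma locus, genes of the mitochondrial ribosome and a few single genes, 11 in all, were left out, which left 694 members of the 18194 genes on the array. Of these 694, 436 passed the filter on low signals and were tested, and 258 did not. The chromosome was chosen by the measured difference between ALT and telomerase tumours in these same arrays. The lower level of its genes in ALT tumours is therefore given as a description, with counts and no test of the chromosome as a set. The order of the genes along the chromosome, the differences among the 5 ALT tumours and the parental tumour were not used in that choice.

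All tumours came from late-generation (G3) Atm-/- TERT-ER mice. Atm is a kinase that signals DNA breaks, and TERT-ER is a fusion of the telomerase catalytic subunit with the oestrogen receptor that is active when 4-hydroxytamoxifen (4-OHT) is given. The lymphomas arose under 4-OHT and were then carried in SCID mice, which lack their own mature B and T cells. The 3 telomerase tumours, at passage 4, were in recipients on 4-OHT. The 5 ALT tumours, also at passage 4, were in recipients on vehicle, so the drug and the mode of telomere maintenance cannot be told apart. The single parental tumour is labelled telomerase-positive, with no passage given. The labels do not say whether tumours with the same label are from different animals or lines, so every SE and p-value measures only the spread between these samples.

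Mouse chromosomes carry their centromere at one end, so each has a single long arm that can be read from one end to the other. Chromosome 13 holds genes of nearly every cellular role next to a few tandem families. Among these are the main cluster of replication-dependent histone genes, the prolactin family, a cluster of serpin protease inhibitors and a cluster of KRAB zinc finger genes. Tert itself lies past the middle of the tested genes. The tandem families apart, neighbours on a chromosome usually share no function, and in mammals most neighbouring genes are transcribed from promoters of their own.

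Array medians over all probe sets lay between 39.8 and 43.8 signal units, and the share of probe sets under 16 units was 28.2% to 30.7% per array. The upper quartile was 194 to 201 units in the ALT arrays and 205 to 210 units in the other arrays. T-cell markers, such as Cd3 chains and Thy1, were present in every tumour, with a summed signal of 36410 to 39620 units over 13 measured markers in telomerase tumours and 28970 to 35770 units in ALT tumours; 3 of these markers were called lower in ALT and 3 higher. Markers of pancreatic acinar cells, which make digestive enzymes, summed to 494.8 to 1262 units in the parental tumour, telomerase 1 and 2 and ALT 3 and 4. In telomerase 3 and ALT 1, 2 and 5 the same sum was 102000 to 224800 units. Skeletal muscle markers summed to 15000 units in the parental tumour and 10110 units in telomerase 1, against 286.7 to 710.6 units elsewhere. B-cell markers summed to 788.9 to 821.3 units in the telomerase tumours and 859.8 to 1152 units in the ALT tumours, with no overlap, and to 859.2 units in the parental tumour. Of 5 measured B-cell markers 3 were tested and none was called. The T-cell sums of these groups did not overlap either. Over all tumours, myeloid markers summed to 6685 to 10220 units and stromal and endothelial markers to 4411 to 7584 units. None of the listed markers lies on chromosome 13. Because these are whole specimens, fewer cells of a type and less RNA per cell cannot be told apart.

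The 250 bases upstream of the annotated start are shown for 6 genes that illustrate the patterns described here. Jarid2, Smad5 and Hnrnpa0 fell in all 5 ALT tumours, Pdcd6 was under the telomerase range in 4 of the 5, and Akr1c12 and Homer1 rose in all 5. Each stretch is from RefSeq, GRCm38.p6, written 5′ to 3′ on the strand of the gene and ending at the base before the start. Where a gene has several annotated starts, the first one whose upstream stretch overlaps no annotated gene was taken. Capitals mark GC boxes, GGGCGG or its reverse complement CCGCCC.
Jarid2 (+ strand, chr13:44730524-44730773): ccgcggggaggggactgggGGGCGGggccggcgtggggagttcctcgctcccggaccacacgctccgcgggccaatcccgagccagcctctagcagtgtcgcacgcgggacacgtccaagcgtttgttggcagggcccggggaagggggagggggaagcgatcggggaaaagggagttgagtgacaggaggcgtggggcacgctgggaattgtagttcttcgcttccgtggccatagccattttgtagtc
Smad5 (+ strand, chr13:56702760-56703009): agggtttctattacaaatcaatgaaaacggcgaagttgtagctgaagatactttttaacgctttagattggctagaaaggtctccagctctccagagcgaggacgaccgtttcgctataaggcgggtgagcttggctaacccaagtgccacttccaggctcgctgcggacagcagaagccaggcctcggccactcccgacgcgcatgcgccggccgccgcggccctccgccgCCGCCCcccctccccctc
Hnrnpa0 (- strand, chr13:58128557-58128806): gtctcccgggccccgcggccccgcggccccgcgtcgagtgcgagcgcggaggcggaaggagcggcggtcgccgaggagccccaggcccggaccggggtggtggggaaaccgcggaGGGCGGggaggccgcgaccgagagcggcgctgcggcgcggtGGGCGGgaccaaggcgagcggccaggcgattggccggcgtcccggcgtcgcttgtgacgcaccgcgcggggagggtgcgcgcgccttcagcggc
Pdcd6 (- strand, chr13:74317327-74317576): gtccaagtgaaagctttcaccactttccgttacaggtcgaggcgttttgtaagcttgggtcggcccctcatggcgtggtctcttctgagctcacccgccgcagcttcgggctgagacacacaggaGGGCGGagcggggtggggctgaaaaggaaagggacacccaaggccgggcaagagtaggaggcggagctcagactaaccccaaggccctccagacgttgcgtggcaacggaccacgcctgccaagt
Akr1c12 (- strand, chr13:4279400-4279649): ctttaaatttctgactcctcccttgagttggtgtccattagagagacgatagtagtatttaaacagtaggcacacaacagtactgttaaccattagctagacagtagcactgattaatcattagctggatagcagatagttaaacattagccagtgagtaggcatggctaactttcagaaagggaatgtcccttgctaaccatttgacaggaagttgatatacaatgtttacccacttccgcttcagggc
Homer1 (+ strand, chr13:93303507-93303756): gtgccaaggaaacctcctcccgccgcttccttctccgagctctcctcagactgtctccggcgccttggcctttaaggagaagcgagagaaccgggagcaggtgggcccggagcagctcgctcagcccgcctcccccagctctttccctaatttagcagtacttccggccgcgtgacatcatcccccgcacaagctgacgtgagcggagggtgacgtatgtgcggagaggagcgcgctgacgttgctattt

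Promoter stretches were found for 594 of the 694 members and 375 of the 436 tested members. GC boxes were searched on both strands of the 250 bases together with CCAAT boxes (CCAAT) and TATA boxes (TATAAA), and matches of different motifs may share bases. Among 32851 RefSeq promoters, 32.7% held a GC box, 33.8% a CCAAT box and 12.4% a TATA box. These promoters include genes without a probe set and genes under the signal filter. They are thus not a like baseline for the tested genes, and no excess on chromosome 13 is read from them. For the tested genes the GC box was found in 58.8% of 228 promoters from the proximal stretch of the chromosome (Gdi2 to Isca1), 37.7% of 53 from the middle stretch and 52.0% of 179 from the distal stretch. CCAAT boxes were held by 32.5%, 37.7% and 33.0% of the same promoters. In the stretches printed above, Hnrnpa0 has 2 GC boxes, Jarid2, Smad5 and Pdcd6 have 1 each, and Akr1c12 and Homer1 hold none of these letters in this window. A match of letters is a description and not a site of binding.

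Most genes of chromosome 13 had lower transcript levels in the ALT tumours, and the shift was broad rather than confined to a few genes. Among the 436 tested genes 170 (39.0%) were called lower and 9 (2.06%) higher, with limma and an adjusted p of 0.05 as the threshold. Over all 12361 tested genes of the array 10% were called lower, 7.47% higher and 17.5% in either direction. The 5 ALT values lay below all 3 telomerase values at 183 genes of the chromosome (42.0%), against 13.8% of all tested genes. The median log2 change was −0.36 (quartiles −0.64 and −0.003), against −0.006 over all tested genes, and 327 genes (75%) were below 0. Only 31 genes were lower by more than 1 log2 unit, whereas 219 genes (50.2%) lay between −1 and −0.25. As this contrast chose the chromosome, nothing further is read from these counts.

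**Figure D1:**
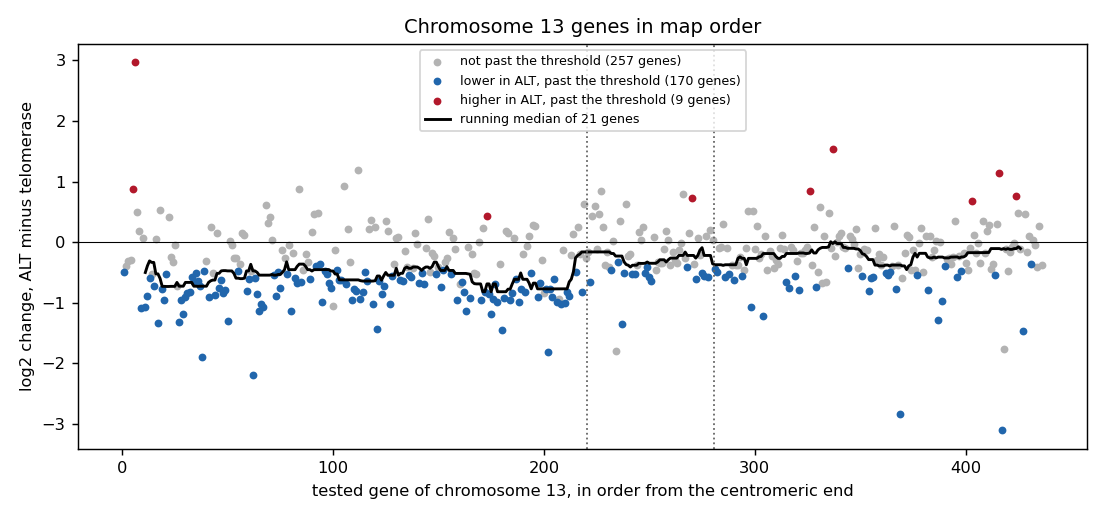
Each point is 1 of the 436 tested genes of chromosome 13 in map order (x axis), with its log2 change, ALT minus telomerase, on the y axis. Blue points are the 170 genes called lower, red points the 9 called higher, the line is the running median of 21 genes and dotted lines part the proximal, middle and distal stretches, whose medians are −0.52, −0.22 and −0.19.

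No other chromosome had a median shift of this size. Across the other 19 chromosomes with tested genes the median log2 change lay between −0.10 (chromosome 12) and 0.19 (chromosome 18), and 4.35% to 16% of their genes were called lower. Single ALT arrays had chromosome medians from −0.24 to 0.22 on those chromosomes. On chromosome 13 the 5 ALT arrays had medians of −0.39, −0.43, −0.21, −0.38 and −0.43, in the order ALT 1 to ALT 5, with a mean of −0.37 ± 0.09 (SD, n = 5). The 3 telomerase arrays, each set against the mean of the other 2, had medians of 0.06, −0.11 and 0.05, and the parental tumour had a median of 0.07. The groups did not overlap, and the parental tumour, which took no part in the choice of the chromosome, lay beside the telomerase tumours. The median over all tested genes lay between −0.02 and 0.02 in the 9 arrays.

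**Figure D2:**
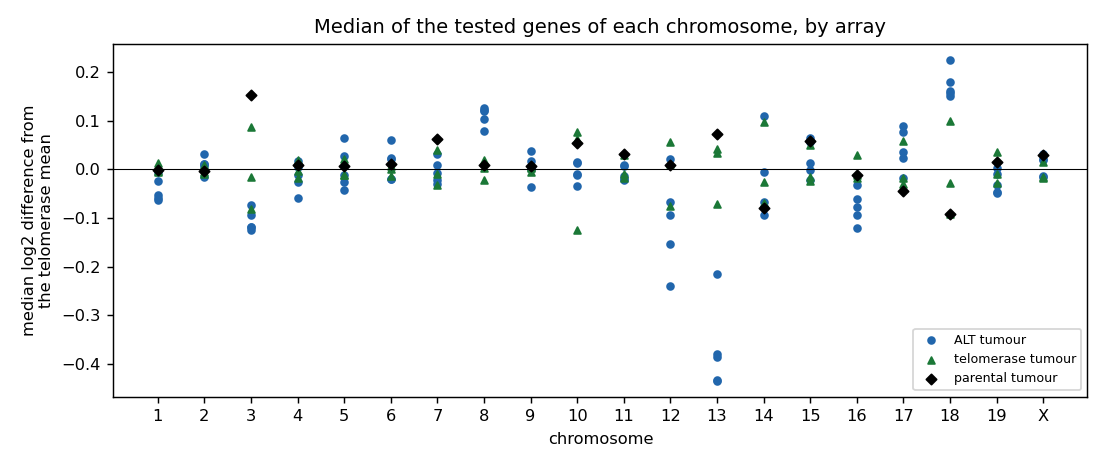
For each chromosome (x axis) the points give the median over its tested genes of log2(signal + 16) minus the mean of the telomerase tumours, 1 point per array. The ALT tumours (blue) sit between −0.43 and −0.21 on chromosome 13 and between −0.24 and 0.22 on the others.

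The shift was not even along the chromosome. The 436 tested genes were cut in map order into 21 windows of 20 genes (36 in the last), and the windows were joined, after their medians had been seen, into 3 stretches. The proximal stretch runs from Gdi2 to Isca1 (220 genes), the middle stretch from Etohd2 to Irx1 (60 genes) and the distal stretch from Lpcat1 to Zfp131 (156 genes). In the proximal stretch 120 genes were called lower and 3 higher, with a median log2 change of −0.52. In the middle stretch the calls were 16 lower and 1 higher with a median of −0.22, and in the distal stretch 34 lower and 5 higher with a median of −0.19. Window medians were lowest at −0.77 in window 11, from Caml to Isca1, and at −0.75 in window 9, from Cks2 to Faf2. The next window after Isca1, from Etohd2 to Slc35d2, had a median of −0.16. In windows of 10 genes the fall eased earlier: the median was −0.91 from Caml to Hnrnpa0, −0.24 from Idnk to Isca1 and 0.07 in the next 10 genes, up to Zfp935. All 5 ALT medians lay below all 3 telomerase medians in 14 of the 21 windows, which include every proximal window. The longest unbroken row of genes with a change below 0 held 19 genes, from Gpr137b-ps to Trim27.

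Counts in the shorter stretches depended on single arrays more than the proximal count did. The proximal count of genes called lower ranged from 102 to 119 as each array was left out. The middle count was 9 without telomerase 1 and 10 without telomerase 3. The distal count rose to 60 without ALT 3 and was 12 without telomerase 1, 20 without telomerase 2, 18 without telomerase 3 and 22 without ALT 2.

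The size of the shift was clearest where signals were well above the filter. The mean signal of a gene over the arrays was used to split each stretch into 3 classes of like size. In the dimmest class of the proximal stretch 12 of 73 genes were called lower, with a median log2 change of −0.05. In its middle class these were 43 of 74 with a median of −0.57, and in its brightest class 65 of 73 with a median of −0.73. The same direction was seen in the middle stretch, with 12 of 20 called lower in the brightest class. In the distal stretch 5 of 52 genes (9.62%) were called lower in the dimmest class. There were 15 of 52 in its middle class and 14 of 52 in its brightest. The dimmest distal share was no higher than the share of all tested genes called lower, given above. That share was not computed by signal class for all tested genes. With the lowest 60% of signals left out, 12.8% of all tested genes were called lower, against 50.8% on chromosome 13. Keeping only genes above the lowest 60% of signals, the ALT signal was a median of 62.5% of the telomerase signal over 161 proximal genes (quartiles 53.4% and 75.1%). It was 76.4% over 41 middle genes (quartiles 68.6% and 103%) and 81.4% over 119 distal genes (quartiles 72.1% and 94.5%).

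Many genes are read by several probe sets, and those not used for the counts were also lower, with a median like the printed one in the proximal stretch and a larger fall in the others. Of 214 genes with several probe sets above the filter, all probe sets were below 0 at 145, all above 0 at 11, and the directions were mixed at 58. The unused probe sets had median log2 changes of −0.54 (203 proximal), −0.31 (27 middle) and −0.32 (139 distal). When each gene was given the average of its probe sets in place of the brightest one, 8 of the named genes lost their call: E2f3, Ercc6l2, Zfp369, Ptch1, Sema4d, Ssbp2, Cplx2 and Elovl7. Their log2 changes were then −0.29 for E2f3, −0.32 for Ercc6l2, −0.44 for Ptch1, −0.28 for Sema4d, 0.49 for Ssbp2, 0.14 for Cplx2 and 0.25 for Elovl7. Several genes that kept their call had a smaller change by this average, among them Ddx46 (−0.83), Serf1 (−1.31), Cast (−0.56), Smad5 (−0.63), Spin1 (−0.56), Trappc13 (−0.59), Ubqln1 (−0.38) and Zfp346 (−0.44), whereas Rala had a larger one (−0.90). Averaged in this way, the distal median was −0.28 and the middle median −0.23, which turns the order of these stretches. The proximal median was −0.44. The averages of Homer1, Gm7969 and Tert lay under the filter, so these genes were not tested in that fit.

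Read array by array, the proximal stretch was lower in each ALT tumour by nearly the same amount. The medians were −0.58, −0.57, −0.57, −0.57 and −0.50 in ALT 1 to ALT 5, with a mean of −0.56 ± 0.03 (SD, n = 5). The telomerase arrays, each against the mean of the other 2, lay at 0.06, −0.13 and 0.05, and the parental tumour at 0.05. Below the telomerase mean were 178, 187, 182, 184 and 160 of the 220 genes in ALT 1 to ALT 5, and 81 in the parental tumour. Telomerase 1 to 3, which make up that mean, had 78, 164 and 91 such genes. By this count the groups overlapped, as telomerase 2 had more than ALT 5. Over all tested genes the share below was 48.7% to 52.4% in the ALT arrays and 56.2% in telomerase 2. The distal stretch differed between ALT tumours. Its medians were −0.24, −0.38, 0.05, −0.29 and −0.40 in ALT 1 to ALT 5, with a mean of −0.25 ± 0.18 (SD, n = 5). Thus ALT 3 lay among the telomerase tumours (0.05, −0.11 and 0.05, each against the mean of the other 2) and the parental tumour (0.06), while the other 4 ALT tumours lay below them. The middle stretch had medians of −0.08, −0.28, −0.24, −0.11 and −0.36, with a mean of −0.21 ± 0.12 (SD, n = 5). Its lowest ALT value was that of ALT 5 and its highest that of ALT 1, which lay near the telomerase array with the lowest value, −0.07.

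**Figure D3:**
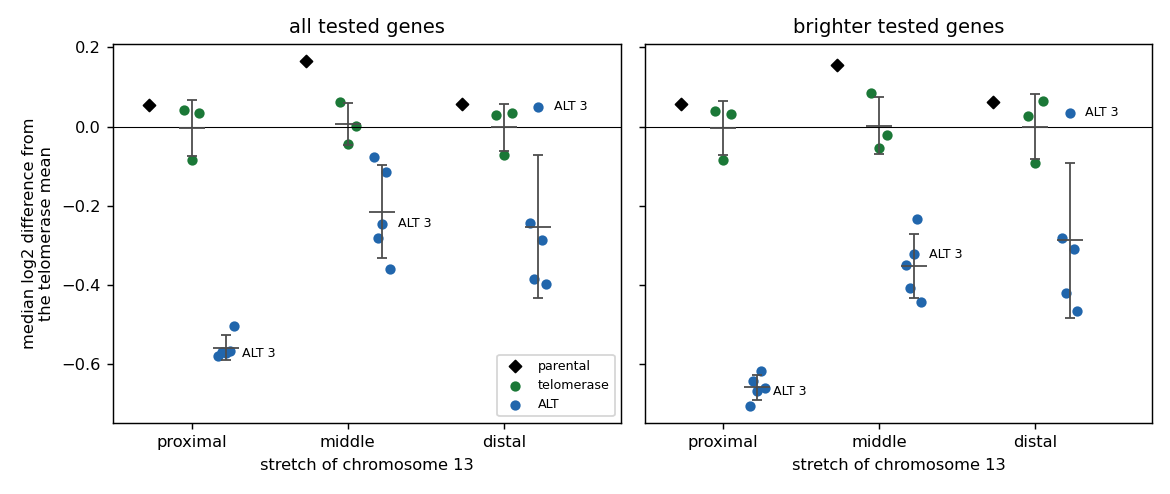
Points are arrays, with the median log2 difference from the telomerase mean (y axis) over all tested genes of each stretch on the left and over genes above the lowest 60% of signals on the right; the cross bars are group means and SDs. In the proximal stretch the ALT tumours sit together between −0.58 and −0.50, and in the distal stretch ALT 3 sits at 0.05, above the other 4.

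ALT 3 parted from the other ALT tumours in the distal stretch. It was the highest of the 5 ALT arrays at 104 of the 156 distal genes (66.7%), at 33 of 220 proximal genes (15%), at 10 of 60 middle genes (16.7%) and at 17.4% of all tested genes. Against the mean of the other 4 ALT arrays its median was 0.38 in the distal stretch, −0.006 in the proximal stretch and 0.01 in the middle stretch. The other 4 ALT arrays, treated likewise, had distal medians from −0.20 (ALT 5) to −0.006 (ALT 1). In every window from Spata9 to the end ALT 3 was the highest ALT array. There is 1 array on one side of this difference and the array was picked for its values, so it has no test. The acinar marker sum was low in ALT 3, at 1262 units, and also in ALT 4, at 862.9 units, whose distal median was −0.29.

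**Figure D4:**
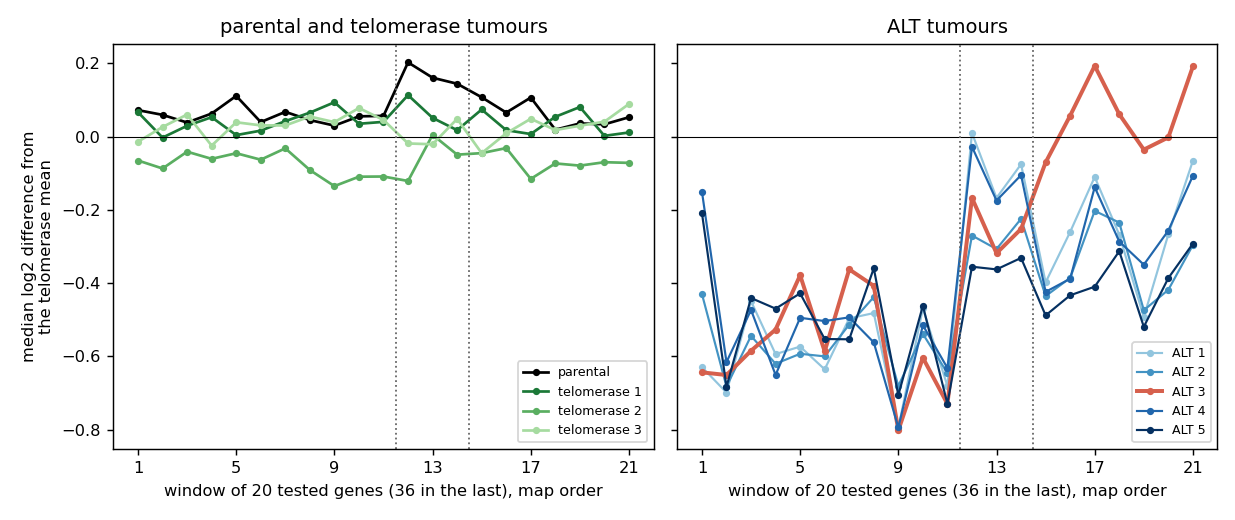
Lines give, for each array, the median log2 difference from the telomerase mean in 21 windows of chromosome 13 in map order, with parental and telomerase tumours on the left and ALT tumours on the right. All ALT lines run below 0 in the proximal windows, and ALT 3 (red) leaves the others after the second dotted line, reaching 0.19 in windows 17 and 21.

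The place where ALT 3 left the other ALT tumours can be seen in single genes near Tert. The genes of this paragraph were chosen after their values were seen. Clptm1l, the neighbour of Tert, had signals of 1120, 1251, 1630, 1191 and 1124 in ALT 1 to ALT 5, against 2058, 1597 and 1697 in telomerase 1 to 3. Trip13, an AAA ATPase that remodels checkpoint and meiotic HORMA-domain proteins, had signals of 933, 947, 1337, 921 and 884 in the ALT tumours and 1556, 1588 and 1196 in the telomerase tumours. ALT 3 was within the telomerase range at both genes, and the other 4 ALT tumours lay below it. Brd9, a bromodomain subunit of a SWI/SNF chromatin remodeller, had signals of 422, 421, 605, 443 and 379 in the ALT tumours and 614, 558 and 584 in the telomerase tumours. Pdcd6, a calcium-binding adaptor of vesicle transport, had 1847, 1803, 2500, 1813 and 1763 in the ALT tumours and 2619, 2299 and 2654 in the telomerase tumours. At all 4 genes ALT 3 stood apart from the narrow range of the other ALT tumours. Clptm1l (log2 change −0.50, SE 0.13) and Trip13 (−0.53, SE 0.15) were called lower all the same, but each lost its call when telomerase 1 or ALT 1, 2, 4 or 5 was left out, Clptm1l also without telomerase 3 and Trip13 without telomerase 2; Brd9 (−0.37, SE 0.14) and Pdcd6 (−0.38, SE 0.12) were not called.

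Tert, also chosen after its values were seen, lies between these genes and encodes the catalytic subunit of telomerase. Its signals were low in every tumour. They were 50.7, 47.5 and 35.2 in the telomerase tumours, 55.9, 25.8, 30.1, 37.4 and 61.4 in ALT 1 to ALT 5, and 54.8 in the parental tumour. The groups overlapped, and the log2 change was −0.09 (SE 0.23). It was 0.02 without ALT 2 and 0.26 within the arrays with a high acinar sum. The sources do not say whether its probe set also reads the TERT-ER transgene.

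The first genes of the chromosome also differed among ALT tumours. In the first window, from Gdi2 to Lgals8, the medians were −0.63, −0.43, −0.64, −0.15 and −0.21 in ALT 1 to ALT 5. In the first 10 genes, up to Pfkp, ALT 5 had a median of 0.20, and in the next 10 it had −0.75, close to the other ALT tumours at −0.86 to −0.65. Gdi2, which recycles Rab GTPases and is the first tested gene, showed this in its own signal. Its values were 3950, 4528, 3755, 5144 and 6047 in ALT 1 to ALT 5, against 6979, 6263 and 6378 in the telomerase tumours. ALT 5 lay just under the telomerase range and ALT 3 was lowest; the log2 change was −0.50 (SE 0.14), a call that was lost when any one of the telomerase tumours or ALT 1, 2 or 3 was left out. At the other end of the chromosome Zfp131, a zinc finger gene and the last tested one, had signals of 1158, 937, 1268, 1049 and 859 in the ALT tumours and 1286, 1330 and 1464 in the telomerase tumours. Its groups did not overlap, with ALT 3 nearest to the telomerase range, and it was not called (log2 change −0.37, SE 0.13).

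The gene groups are read against all tested genes of the chromosome, of which 39.0% were called lower, and against each stretch. Called lower were 54.5% in the proximal, 26.7% in the middle and 21.8% in the distal stretch. The proximal share rose with signal, from 16.4% in the dimmest class to 58.1% in the middle and 89.0% in the brightest. The groups were not matched for signal, and their lists were chosen with earlier results of these data known. No preference for a cellular role is therefore read from these shares. The same holds for the counts at an unadjusted p of 0.05 in limma given with each group. No share at that threshold was computed for the chromosome, its stretches or all tested genes. Genes of RNA processing and the ribosome had the largest share of members called lower among these groups. Of 35 tested members 22 (62.9%) fell and none rose (28 lower and 0 higher at an unadjusted p of 0.05 in limma), with a median log2 change of −0.54. All 17 proximal members fell, against 54.5% of all proximal genes, whereas 4 of 17 distal members did (23.5%), close to the 21.8% of all distal genes. Hnrnpa0, an RNA-binding protein of the hnRNP family whose promoter is shown above, had signals of 4670, 4448 and 4547 in the telomerase tumours and 2162, 2357, 1995, 2305 and 2497 in the ALT tumours. It was 4486 in the parental tumour. All ALT values thus lay near one another and well under the telomerase range (log2 change −1.01, SE 0.078). Ddx46, an RNA helicase of the U2 snRNP, fell from 921 ± 171 (SD, n = 3) to 252 ± 43.5 (SD, n = 5), a log2 change of −1.81 (SE 0.16) for its brightest probe set and of −0.83 as the average of its probe sets. Gtpbp4, a GTPase needed to make the large ribosomal subunit, was 1268, 1212 and 1132 in the telomerase tumours and 658, 588, 685, 622 and 685 in the ALT tumours (−0.88, SE 0.085). Nol7, a nucleolar protein, fell by 0.64 (SE 0.056), with ALT signals that spanned only 2161 to 2282. Hnrnpk, a further hnRNP protein chosen after its values were seen, fell by 0.49 (SE 0.071).

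Of 35 tested trafficking and proteolysis genes 20 (57.1%) fell and none rose (22 lower and 2 higher at an unadjusted p of 0.05 in limma), against 39.0% called lower on the chromosome. Those were 13 of 20 (65.0%) in the proximal stretch, where 54.5% of all genes were called lower, and 7 of 13 (53.8%) in the distal stretch, where 21.8% were; neither of the 2 middle members was called. The median was −0.47. Psma2, an alpha subunit of the proteasome core, was 3663, 3462 and 3924 in the telomerase tumours and 1853, 2103, 2121, 2247 and 1954 in the ALT tumours, with no overlap (−0.84, SE 0.079). Ubqln1, which carries ubiquitinated proteins to the proteasome, fell by 0.89 (SE 0.095), and Rab24, a small GTPase linked to autophagy, fell by 0.99 (SE 0.11). Trappc13, a subunit of the TRAPP tethering complex in the distal stretch, was 583, 531 and 659 in the telomerase tumours and 262, 279, 332, 300 and 287 in the ALT tumours (−0.98, SE 0.11). In this gene ALT 3 was the highest ALT tumour but far under the telomerase range. Golm1, a Golgi membrane protein, went against its window with a log2 change of 0.63 (SE 0.20) and was not called, though its ALT signals of 29.2 to 64 lay above the telomerase signals of 21.4 to 24.8. Parp8, a mono-ADP-ribosyltransferase, fell from 133 ± 25.8 (SD, n = 3) to 44.5 ± 31.5 (SD, n = 5), but was no longer called when any telomerase tumour, ALT 1 or ALT 2 was left out. Its change was −0.68 within the arrays with a low acinar sum and −2.01 within those with a high sum, neither of them called, and the part of acinar cells was not tested.

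Of 11 tested DNA repair genes 5 (45.5%) fell, near the 39.0% of the chromosome, and none rose (7 lower and 0 higher at an unadjusted p of 0.05 in limma). The median was −0.47. Called lower were 2 of 2 proximal members (against 54.5% of all proximal genes), 1 of 2 middle members (against 26.7%) and 2 of 7 distal members (28.6%, against 21.8%). Tdp2, which removes topoisomerase 2 adducts from DNA ends, was 1093, 1000 and 1028 in the telomerase tumours and 503, 549, 533, 516 and 435 in the ALT tumours, with no overlap (−1.02, SE 0.095). Uimc1, which brings the BRCA1-A complex to ubiquitin at breaks, fell by 0.95 (SE 0.16). Ercc6l2, a helicase-like factor in DNA end joining in the middle stretch, fell by 0.51 (SE 0.13), a call that was lost without telomerase 1. Msh3, a mismatch repair protein in the distal stretch, was 230, 232 and 246 in the telomerase tumours and 134, 105, 176, 138 and 127 in the ALT tumours (−0.75, SE 0.14), ALT 3 again the highest of the ALT tumours.

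Cell division genes fell in 11 of 22 tested members (50.0%, against 39.0% on the chromosome) and rose in none (11 lower and 0 higher at an unadjusted p of 0.05 in limma). Those were 8 of 12 (66.7%) in the proximal stretch, against 54.5%, and 2 of 8 (25%) in the distal stretch, against 21.8%. The median was −0.37. Spin1, a reader of histone methylation, was 2667, 2383 and 2822 in the telomerase tumours and 1189, 1567, 1266, 1501 and 1249 in the ALT tumours (−0.95, SE 0.11). Cdk13, a kinase of RNA polymerase II, fell by 0.66 (SE 0.085) and Tbce, a tubulin folding cofactor, by 0.95 (SE 0.12). E2f3, a transcription factor of S phase entry, was 540, 480 and 583 in the telomerase tumours and 262, 314, 334, 342 and 293 in the ALT tumours (−0.76, SE 0.11). The ranges of these 4 genes did not overlap between the groups.

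Transcription factors and chromatin genes fell in 10 of 25 tested members (40%) and rose in 1, with a median of −0.23. This share is that of the chromosome (39.0%), and the 9 of 18 proximal members that fell (50.0%) are near the proximal share (54.5%). Jarid2, a partner of Polycomb repressive complex 2, was 712, 590 and 673 in the telomerase tumours, 672 in the parental tumour and 302, 312, 319, 341 and 299 in the ALT tumours (−1.03, SE 0.094). Macroh2a1, which encodes a histone H2A variant with a macro domain, fell from 4685 ± 14 (SD, n = 3) to 2365 ± 275 (SD, n = 5), a change of −0.99 (SE 0.092). Smad5, a mediator of BMP signals that lies near Hnrnpa0, was 848, 771 and 976 in the telomerase tumours and 395, 383, 394, 452 and 466 in the ALT tumours (−1.02, SE 0.11). Sox4, a transcription factor of early lymphocytes, fell from 5953 ± 150 (SD, n = 3) to 3239 ± 336 (SD, n = 5), a change of −0.88 (SE 0.083). By the brightest probe set, the ALT mean was 47.8% of the telomerase mean in Jarid2, 50.5% in Macroh2a1, 48.3% in Smad5 and 54.4% in Sox4. As the average of the probe sets, the log2 changes were less alike. They were −0.94 in Jarid2, −0.99 in Macroh2a1, −0.63 in Smad5 and −0.60 in Sox4. Ptch1, the Hedgehog receptor, in the middle stretch, had signals of 2693, 1690 and 1680 in the telomerase tumours and 722, 840, 729, 926 and 647 in the ALT tumours (−1.34, SE 0.17).

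**Figure D5:**
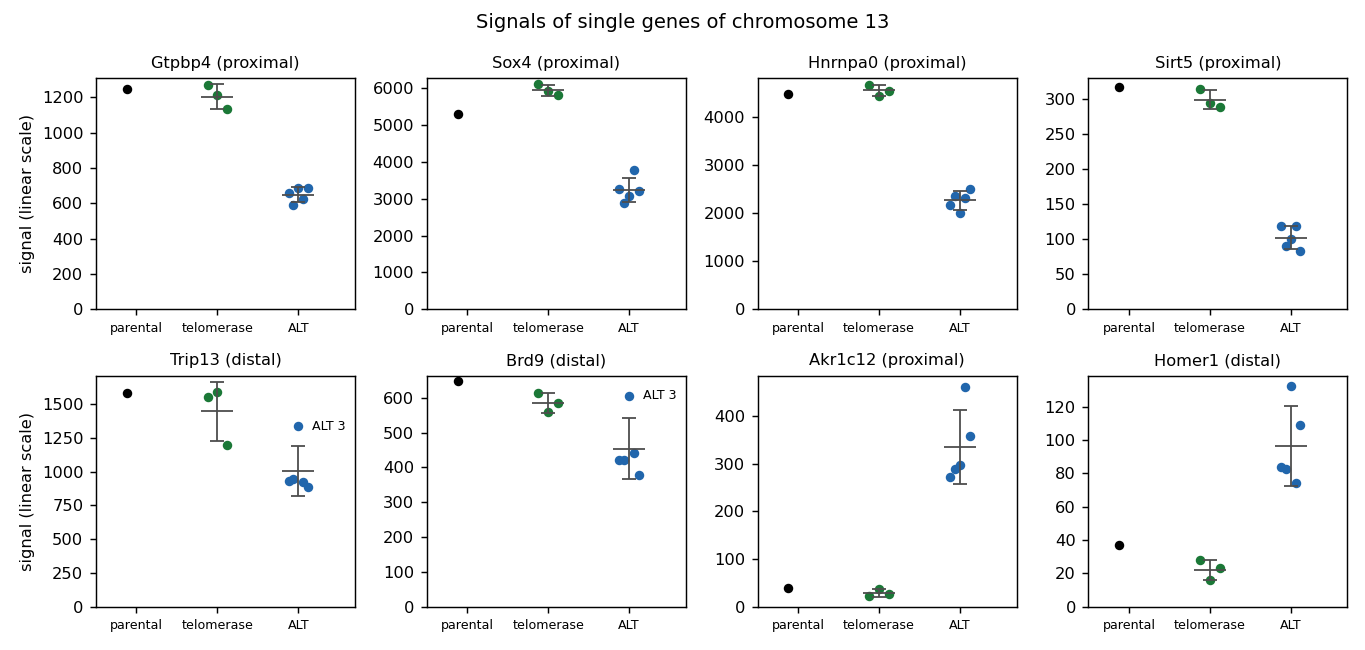
Signals of 8 genes on a linear scale that starts at 0, with 1 point per array and bars for the mean and SD of the telomerase and ALT groups. Gtpbp4, Sox4, Hnrnpa0 and Sirt5 have ALT tumours below the telomerase tumours, ALT 3 stands at the telomerase level in Trip13 (1337) and Brd9 (605), and Akr1c12 and Homer1 are higher in every ALT tumour.

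Mitochondrial and metabolic genes fell in 10 of 35 tested members (28.6%, against 39.0% on the chromosome) and rose in 1 (19 lower and 1 higher at an unadjusted p of 0.05 in limma), with a median of −0.33. All 10 that fell were among the 19 proximal members (52.6%, against 54.5%). None of the 14 distal members was called lower in limma, although 3 were lower at an unadjusted p of 0.05. Sirt5, a mitochondrial desuccinylase, had signals of 314, 293 and 289 in the telomerase tumours and 119, 90.4, 99.4, 118 and 83.5 in the ALT tumours (−1.42, SE 0.13). Acot13, a thioesterase of acyl-CoA, fell by 1.13 (SE 0.098), and Pitrm1, a protease that clears presequences inside mitochondria, by 1.09 (SE 0.097). Prelid1, which moves phosphatidic acid between mitochondrial membranes, fell by 0.78 (SE 0.06), with ALT signals from 2049 to 2222. Fbp1, a gluconeogenic enzyme of the middle stretch chosen after its values were seen, spread widely in the ALT tumours, with signals of 1119, 712, 2348, 1895 and 193 against 3449, 3104 and 3325 in the telomerase tumours. Its ALT values all lay below the telomerase values, and with that spread it was not called (−1.80, SE 0.65). The 3 lowest values were in the ALT arrays with a high acinar sum, and the change was −0.63, which was called, within the low arrays and −2.58, not called, within the high arrays; the part of acinar cells was not tested. Ero1b, an oxidase of the endoplasmic reticulum, was 107, 101 and 259 in the telomerase tumours and 181, 226, 128, 133 and 397 in the ALT tumours. Its highest values were in arrays with a high acinar sum; the part of acinar cells in this result was not tested, and within those arrays its log2 change was −0.03, against 0.42 (SE 0.38) in all.

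Of 34 tested lymphocyte and immune genes 8 (23.5%, against 39.0% on the chromosome) fell and 1 rose (11 lower and 6 higher at an unadjusted p of 0.05 in limma), with a median of −0.18. Called lower were 5 of 18 proximal members (27.8%, against 54.5% of all proximal genes) and 3 of 13 distal members (23.1%, against 21.8%). The medians of these members were −0.46 and 0.10. Gzma, the cytotoxic granule protease granzyme A in the distal stretch, fell by 3.10 on the log2 scale (SE 0.82). Its signals were 6139, 8109 and 11524 in the telomerase tumours, 7295 in the parental tumour and 644, 312, 5066, 2150 and 341 in the ALT tumours. The groups did not overlap, yet ALT 3 lay close under the telomerase range, while ALT 1, 2 and 5, the ALT arrays with a high acinar sum, were far lower. Within the arrays with a low acinar sum the change was −1.09 and not called, and within those with a high sum it was −4.76; the part of acinar cells in it was not tested. The call was also lost when any telomerase tumour, ALT 1 or ALT 2 was left out. Sema4d, a semaphorin of the T-cell surface, was 1106, 950 and 972 in the telomerase tumours and 416, 439, 515, 502 and 395 in the ALT tumours (−1.13, SE 0.11). Cast, the calpain inhibitor calpastatin in the distal stretch, fell by 1.07 (SE 0.13), from 540 ± 75.6 (SD, n = 3) to 248 ± 31.0 (SD, n = 5). Grk6, a kinase of chemokine receptors, fell by 0.51 (SE 0.085) and Rala, a small GTPase, by 0.52 (SE 0.088).

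Histone and zinc finger genes are the tandem families that were counted. Of 7 replication-dependent histone genes measured only 3 passed the filter, all below 0, and none was called in limma, with 0 also at an unadjusted p of 0.05. H1f2, a linker histone gene, had signals of 381, 297 and 354 in the telomerase tumours and 415, 141, 325, 189 and 336 in the ALT tumours, which overlap (−0.37, SE 0.30). H1f6 (−0.27, SE 0.19) and H3c7 (−0.26, SE 0.22) had signals under 61 units in every tumour. Of 28 tested zinc finger genes 6 (21.4%, against 39.0% on the chromosome) fell and none rose (11 lower and 0 higher at an unadjusted p of 0.05 in limma). Those were 4 of 7 in the proximal stretch (57.1%, against 54.5%) and 2 of 19 in the middle stretch (against 26.7%), where the tandem cluster lies. Zkscan3 fell by 0.87 (SE 0.15), Zfp322a by 0.84 (SE 0.17) and Zfp346 by 0.83 (SE 0.11), all proximal, whereas Zfp369, in the cluster, fell by 0.51 (SE 0.12) and lost its call without telomerase 1 or 3. Probe sets of such families can read several near-identical transcripts, and their values are uncertain in that respect.

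Among the remaining genes with the largest falls, Serf1, a small protein gene beside the survival motor neuron gene, had signals of 529, 416 and 508 in the telomerase tumours and 32.8, 48.4, 31.2, 73.2 and 111 in the ALT tumours (−2.83, SE 0.30, or −1.31 as the average of its probe sets). ALT 3 was the lowest of the ALT tumours here, although the gene lies in the distal stretch. Amph, which encodes the endocytic protein amphiphysin, fell from 74.9 ± 40.8 (SD, n = 3) to 7.40 ± 4.36 (SD, n = 5), a level under the constant of 16 added before the log, so that its change of −1.89 understates the ratio. Gm11346, a transcribed pseudogene, was 189, 130 and 185 in the telomerase tumours and 23.9, 15.1, 37.3, 36.4 and 12.5 in the ALT tumours (−2.19, SE 0.24). Gm10336, a long non-coding RNA gene, fell by 1.34 (SE 0.12). Faf2, an adaptor of degradation at the endoplasmic reticulum, fell by 1.45 (SE 0.17), with ALT 5 at 43.5 below the other ALT tumours at 71.4 to 79.8.

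The 9 genes called higher in ALT lay in all 3 stretches. Akr1c12, an aldo-keto reductase near the start of the chromosome, had signals of 22.1, 37.3 and 26.5 in the telomerase tumours, 39.4 in the parental tumour and 272, 289, 297, 461 and 358 in the ALT tumours. Every ALT tumour was thus several-fold above every other tumour, and the log2 change of 2.96 (SE 0.18) was the largest rise on the chromosome. Akr1c13, its neighbour and paralogue, was 291, 406 and 331 in the telomerase tumours, 527 in the parental tumour and 468, 557, 570, 804 and 871 in the ALT tumours (0.87, SE 0.20), with the parental tumour inside the ALT range. Probe sets of these paralogues may share transcripts. Homer1, a postsynaptic scaffold protein, was 27.9, 16 and 23.1 in the telomerase tumours and 83.7, 83.0, 133, 74.0 and 109 in the ALT tumours (1.54, SE 0.19). The near surroundings of these genes were little shifted. In windows of 10 genes the median was −0.11 from Gdi2 to Pfkp, which holds Akr1c12 and Akr1c13, and 0.05 from Serinc5 to Arsb, which holds Homer1.

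Ssbp2, a single-stranded DNA-binding cofactor of LIM-domain complexes, rose by 0.85 (SE 0.16), from 550 ± 137 (SD, n = 3) to 992 ± 123 (SD, n = 5). Gpx8, a peroxidase of the endoplasmic reticulum, was 88.6, 61.7 and 133 in the telomerase tumours, 163 in the parental tumour and 203, 159, 352, 249 and 173 in the ALT tumours (1.14, SE 0.27), highest in ALT 3. Itga2, the alpha 2 integrin subunit that binds collagen, rose by 0.76 (SE 0.16), from 25.1 ± 4.51 (SD, n = 3) to 53.8 ± 9.17 (SD, n = 5). Elovl7, a fatty acid elongase, changed by 0.67 (SE 0.20) and Cplx2, a complexin of vesicle fusion, by 0.44 (SE 0.12). For Cplx2 the parental tumour lay 0.61 above the telomerase mean, higher than every ALT tumour (0.30 to 0.56). Its call was lost when the parental tumour was added to the telomerase tumours. Gm7969, a predicted gene, changed by 0.72 (SE 0.20). The calls of these last 3 were each lost on leaving out any of several single arrays, that of Gpx8 without telomerase 1 or 2 and that of Akr1c13 without telomerase 1 or 3. Of the 9 genes, all but Ssbp2 and Akr1c13 had a telomerase mean under 95 units.

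The shift was also read by the acinar content of the arrays, since 4 of the passage 4 arrays carried acinar transcripts. Proximal ALT medians had a mean of −0.57 ± 0.004 (SD, n = 2) in the arrays with a low acinar sum and −0.55 ± 0.04 (SD, n = 3) in those with a high sum. These medians were taken against the mean of all 3 telomerase arrays, which are of both kinds. The fit within the low arrays, 2 telomerase against 2 ALT, gave a proximal median of −0.51 with 68 of 220 genes called lower. The fit within the high arrays, 1 telomerase against 3 ALT, gave −0.58 with 39 called lower and assumes that the lone telomerase tumour varies like the others. The part of acinar cells in the proximal shift was not tested. The distal median was −0.08 within the low arrays, where ALT 3 is 1 of the 2 ALT tumours, and −0.33 within the high arrays, with 5 and 10 distal genes called lower. Some further named genes differed between the 2 kinds of array. Gpx8 had a change of 1.79 within the low arrays and of 0.37, not called, within the high arrays, and Zfp322a of −0.50, not called, and −1.33. Gm7969 had 0.48 and 1.16, and Zfp131 −0.18 and −0.58, none of them called. Ssbp2 had 0.42, not called, within the high arrays.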

How the data were processed

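Total RNA of 9 tumours was labelled with biotin and hybridised to Affymetrix Mouse Genome 430 2.0 arrays. The authors deposited 1 intensity per probe set and array, on a linear scale, computed with MAS5 per the submitters' processing notes; settings, scaling target and detection calls are not stated in those notes, which leaves the background level unknown. With 9 arrays the precision is limited. No further normalisation was applied. Of 45101 probe sets 34958 named a single gene; gene order and promoters come from RefSeq GRCm38.p6. For each gene the brightest probe set, by its mean signal in all 9 arrays, was kept, and genes in the lowest 40% of signals were left out. An added constant of 16 preceded log2. ALT and telomerase tumours (5 and 3) were compared with limma 3.58.1 in R 4.3.3, with an intensity trend, a two-sided test and Benjamini-Hochberg adjustment over all 12361 tested genes. A call is an adjusted p under 0.05. The parental tumour was not in the fit. In each array, values were set against the mean of the 3 telomerase arrays. The fit was tested on simulated data. Summaries and plots used Python 3.11.15, pandas 2.3.3 and matplotlib 3.10.9.

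Named genes are those called, without overlap between the groups, that changed most (up to 10 lower and 10 higher), up to 4 members of each gene group with the smallest p, the first and last tested gene, and the largest change against its window; others are marked in the text as chosen after their values were seen. The members and gene lists were chosen with earlier results of these data known. Replicate numbers were not used as a block. The alternatives changed the filter, constant, normalisation, probe set choice, variance trend, threshold, window size and the arrays included. Probe sets whose names end in _x_at or _s_at can read several transcripts.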

Additional observations from a re-analysis of the deposited data

Results flagged for a closer look

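Among 88 sets of 5 ALT values examined (medians over stretches and windows, and signals of named genes), 11 had an array at one end whose gap to the nearest other array passed Dixon's 95% limit. Of these 11, 4 are genes chosen because ALT 3 stood apart at them (Clptm1l, Trip13, Brd9 and Pdcd6), so neither the number past the limit nor the tally for ALT 3 is evidence about it. Without the 7 genes chosen after their values were seen, 7 of 81 sets passed, 3 of them by ALT 3, where chance passes about 1 in 20; windows and the whole chromosome share genes. The ALT 3 median over the chromosome was −0.21, above the other ALT tumours at −0.43 to −0.38. Its median was −0.0705 in the window from Lpcat1 to Glrx and 0.061 in the window from Lhfpl2 to Utp15. Its signal was 1630 for Clptm1l, 1337 for Trip13, 605 for Brd9 and 2500 for Pdcd6, all neighbours in the first distal window.

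ALT 5 stood apart in the proximal median, at −0.50, and in the signal of Faf2, at 43.5. ALT 1 stood apart in the signal of Elovl7, at 148, and ALT 4 in that of Nol7, at 2282, a difference of small size since the other ALT tumours lay at 2161 to 2190.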

How the results depend on the processing

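The number of genes of the chromosome called lower (170), called higher (9) and called in all (179), the median log2 change (−0.36) and the mean of the ALT medians per array (−0.37) kept their direction under every alternative run. Without the filter the median was −0.14, and with the lowest 60% of signals left out it was −0.47, the ALT mean −0.47 and 5 genes were called higher; these settings change which genes are tested. Within the arrays with a low acinar sum 89 genes were called, 80 of them lower, with a median of −0.26; within those with a high sum 52 were called, 50 lower and 2 higher. Both have fewer arrays. With the replicate number as a replicate block, 113 genes were called, 108 lower and 5 higher, and 982 of all tested genes against 2161. In that fit ALT 4 and 5 have no partner and so do not bear on the difference. Deviations of same-numbered tumours had correlations of −0.30, −0.40 and −0.57. The correlations followed the acinar sum: telomerase 3 had 0.38, 0.45 and 0.41 with ALT 1, 2 and 5, and −0.57 and −0.48 with ALT 3 and 4. They therefore cannot show whether the numbers pair the tumours, and the labels do not say. Leaving out each array in turn gave 129 to 201 calls, 123 to 193 lower and 6 to 10 higher, and medians from −0.40 to −0.33. Quantile normalisation gave 159 lower and 9 higher on the chromosome, while over all tested genes the split went from 1238 lower and 923 higher to 1029 and 1114; the median over all genes moved to 0.03. The share of windows in which the groups separated was 66.7% with 20 genes, 62.8% with 10 and 70.0% with 40. Of 63 named genes 53 were called, and 41 of them kept the call without each array in turn. Tert changed sign without ALT 2 (its values without 1 array ran from −0.206 to 0.0177) and within the high acinar arrays (0.264), as did Ero1b within the latter (−0.0271); the cause was not tested. Signals under 16 units limit what can be said of dim genes.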
